A study of Aspergillus niger with 24 samples.

Results

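In Aspergillus niger, a mould grown industrially for the enzymes it secretes, a set of 22 genes had a mean level on day 1 of culture at least 4 times that of every later day in both strains studied. The set was taken from 11846 genes by their transcript levels in TPM, a unit that corrects for gene length and gives every library the same total. A gene was a member if its mean over 3 replicate libraries was at least 10 TPM at day 1 in both strains, if both of these means were at least 4 times the highest of the 6 later group means, and if its mean over all libraries was under 1000 TPM. The strain groups were TLL at days 1, 2, 3 and 4, a strain of CICC2629 that expresses the lipase TLL, and wild type (WT) CICC2629 at days 1, 2, 3 and 4, each with 3 libraries. The medium was potato dextrose agar, kept at 28 °C for both strains, and the 24 libraries hold RNA of hyphae. The series states sampling at 0, 24, 48 and 72 hours and does not tie an hour to a labelled day, so the day labels are used. The sources used here do not give the promoter of the lipase gene or the number of clones behind the TLL strain. Whether the replicates are separate cultures is not stated, so each p-value covers only the spread between these libraries, which may be technical.

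A colony of A. niger starts from conidia, its asexual spores, which swell, send out germ tubes and grow into a branching mycelium. An older colony on agar also forms aerial hyphae and new conidia, and it uses up the sugars of the medium nearest to it, so the transcripts of a young and an older colony commonly differ. In filamentous fungi, genes of 1 metabolic pathway can lie side by side and be transcribed together. The IDs of these genes are not paired with names or products in the files or the reference table, where 0 of 11846 IDs matched, so no role is given for any of them. For the same reason the hyphal label was not checked against markers of conidiophores. In bulk RNA of a colony, fewer cells of a kind and less RNA per cell cannot be told apart.

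The values are relative to each library and keep no read depth, so no counting interval is given. Each library listed 7918 to 8935 genes at 1 TPM or more. At day 1, TLL replicate 3 and WT replicate 1 stood apart from the other replicates of their strains. All libraries are used under the labels they carry, and whether those of these 2 are right was not tested, which bears on every day 1 difference between the strains. Across the 9558 genes that reached 1 TPM in 3 or more libraries they correlated with each other at r = 0.972 on the log2(TPM + 1) scale, against 0.920 and 0.949 for TLL replicate 3 with the other TLL libraries and 0.923 and 0.924 for WT replicate 1 with the other WT libraries. The remaining TLL and WT day 1 libraries correlated at 0.963 to 0.973 across the strains, so 0.972 is not unusual for libraries of different strains. Within the strains they correlated at 0.989 in TLL and 0.990 in WT. TLL replicate 3 and WT replicate 1 touch most of the values below, which are given per library for that reason.

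Few genes met the rule. A mean of at least 10 TPM at day 1 in both strains was reached by 5723 genes, and 22 of these also met the 4-fold condition. No gene was removed by the upper limit, as the highest mean over all libraries among the members was 120.7 TPM (NRRL3_05587). With 1 strain's day 1 mean alone, and before the upper limit, 33 genes would have passed for TLL and 60 for WT. Each count includes the 22. The member nearest to both limits was NRRL3_07581, with day 1 means of 12.3 TPM in TLL and 10.02 TPM in WT, of which the lower was 4.19 times its highest later mean. Just outside the fold limit stood NRRL3_09716, at 3.89 times, and just outside the level limit NRRL3_09940, with 9.80 TPM in TLL and 9.51 TPM in WT at day 1.

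All differences between day 1 and the later days chose the members and are given as a description, without a test. The members' TPM summed to 1655 ± 55.0 in the TLL day 1 libraries, 141.2 ± 16.5 in the TLL day 2 libraries, 78.4 ± 5.92 in the TLL day 3 libraries and 59.3 ± 0.886 in the TLL day 4 libraries (SD, n = 3 each). In WT the sums were 3440 ± 1301 at day 1, 200.5 ± 44.4 at day 2, 108.1 ± 3.14 at day 3 and 94.7 ± 6.97 at day 4 (SD, n = 3 each). Most of the drop lay before day 2 in both strains, which the rule required. Both day 1 means had to be at least 4 times every later group mean, day 2 included. The sums were lower again at each later day. The WT day 1 sum was also the least even, with 2030.52 TPM in replicate 1, 4595.52 TPM in replicate 2 and 3693.44 TPM in replicate 3. In TLL the day 1 sums were 1709.25, 1599.36 and 1657.82 TPM in replicates 1, 2 and 3, although the genes behind them were not the same in all 3, as described below.

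**Figure D1:**
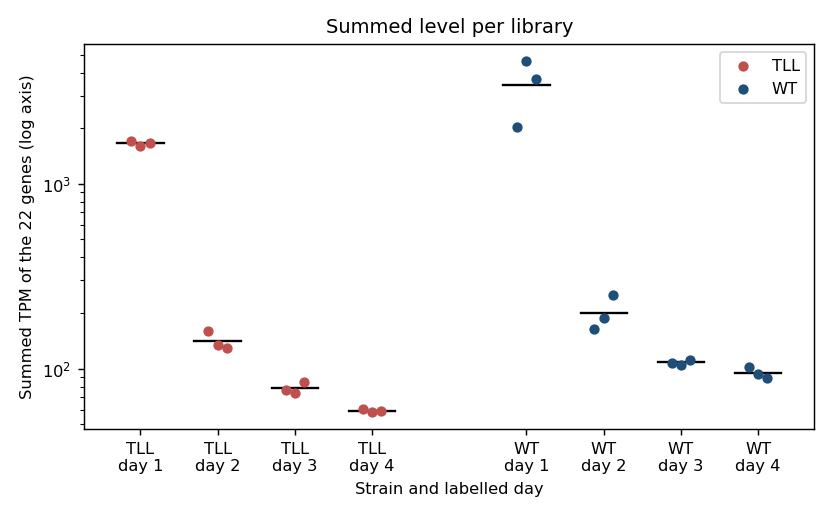
Summed TPM of the 22 members in each library (points) with the mean of each group (line), by strain and labelled day, on a log axis, TLL left and WT right. The day 1 libraries lie at 1599.36 TPM or more and all later libraries at 250.07 TPM or less.

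The members did not all go silent. The highest later group mean was at least 1 TPM in all 22 members and at least 10 TPM in 4 of them, and 9 members kept at least 1 TPM in each of the 6 later groups. The highest later mean fell in the WT day 2 libraries for 13 members, in the WT day 3 libraries for 7 and in the TLL day 2 libraries for 2. At the other end, group means under 1 TPM were found for 5 members in the TLL day 2 libraries, 11 in the TLL day 3 libraries, 11 in the TLL day 4 libraries, 1 in the WT day 2 libraries, 6 in the WT day 3 libraries and 10 in the WT day 4 libraries. A value of exactly 0 was listed in at least 1 later library for 10 members. All 6 day 1 libraries lay above all 18 later libraries in 15 members, a pattern found in 2.61% of the 9558 genes. In the other 7 members at least 1 day 1 library was no higher than the highest later one, so these are day 1 genes in some of the day 1 libraries only.

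The 2 members with the highest day 1 means show both ends of this range. NRRL3_05587 stood at 176.23, 149.99 and 22.7 TPM in the TLL day 1 libraries, against 26.77, 1408.38 and 992.22 TPM in the WT day 1 libraries. Its later libraries held 1.31 to 10.74 TPM in TLL and 3.00 to 16.7 TPM in WT. All day 1 libraries were above the later ones, but the lowest day 1 library was close to the highest later one. NRRL3_05808 was even at day 1, with 371.29, 340.41 and 294.09 TPM in TLL and 411.83, 308.01 and 264.35 TPM in WT. Its highest later mean was the highest among the members, and its later levels were 60.4 ± 8.07, 33.8 ± 3.76 and 13.6 ± 1.31 TPM in TLL days 2, 3 and 4 and 75.3 ± 22.0, 11.1 ± 4.07 and 49.0 ± 3.34 TPM in WT days 2, 3 and 4 (SD, n = 3 each). Its lowest later library still held 7.99 TPM.

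The 2 members with the largest ratio of the lower day 1 mean to the highest later mean were NRRL3_00847, at 34.5, and NRRL3_09100, at 34.4. NRRL3_00847 held 32.99, 77.84 and 502.93 TPM in the TLL day 1 libraries and 910.24, 75.85 and 98.21 TPM in the WT day 1 libraries, with at most 7.67 TPM in any later library. NRRL3_09100 held 144.74, 124.87 and 65.02 TPM in the TLL day 1 libraries and 38.45, 266.63 and 231.62 TPM in the WT day 1 libraries, with at most 3.59 TPM later. The libraries that were highest for one of these genes were lowest for the other: NRRL3_00847 was highest in TLL replicate 3 and in WT replicate 1, where NRRL3_09100 was lowest.

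**Figure D2:**
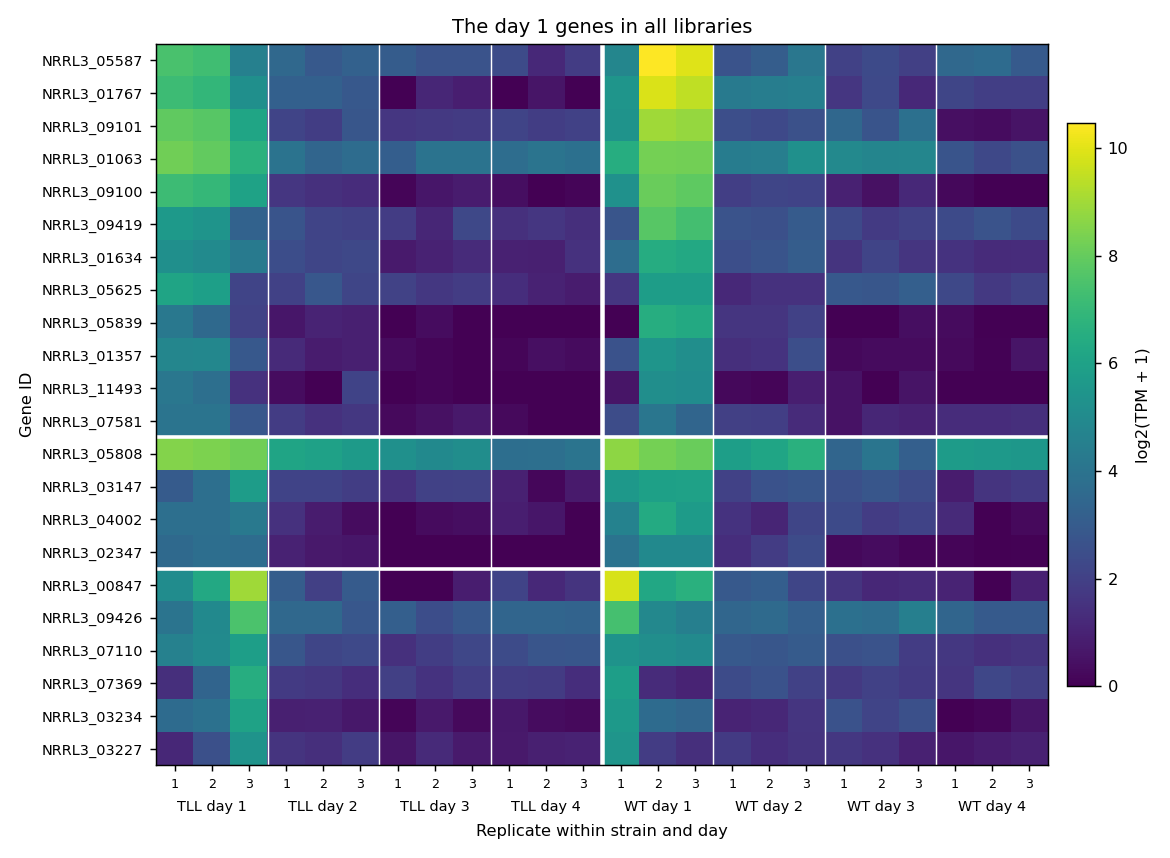
log2(TPM + 1) of the 22 members (rows) in the 24 libraries (columns, by strain, day and replicate), with TLL left and WT right. Rows are grouped by the day 1 pattern: 12 members lowest in both TLL replicate 3 and WT replicate 1 (top), 4 with neither pattern (middle) and 6 highest in both (bottom).

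Most members followed one of these patterns, and 4 followed neither. Of the 22 members, 12 were lowest in TLL replicate 3 among the TLL day 1 libraries and also lowest in WT replicate 1 among the WT day 1 libraries, and 6 were highest in both. Among the 9558 genes, 24.7% were lowest in both and 29.7% highest in both, and among the 5723 genes with at least 10 TPM in both day 1 means the shares were 31.9% and 25.3%. The rule used the means of these libraries and not their order, but the members' values and all other genes' values come from the same 6 libraries, so the shares are a description. The members' day 1 spread was wide. It comes from the day 1 values that the rule used, and a mean can pass the rule through 1 high library. The spread is thus a description too. With medians of the replicates in place of means the rule found 16 genes, all of them members. The median SD of log2(TPM + 1) over 3 replicates was 1.11 in the TLL day 1 libraries and 1.56 in the WT day 1 libraries, against 0.27 and 0.34 for the 5723 genes. At the later days the members' median SD was 0.17 to 0.31.

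The 12 members lowest in these libraries differed in how far they dropped there. NRRL3_05839 was listed at 0 in WT replicate 1, with 90.51 and 79.81 TPM in the other WT day 1 libraries, and at 3.19 TPM in TLL replicate 3, with 17.26 and 11.04 TPM in the other TLL day 1 libraries. NRRL3_05625 held 68.43, 59.47 and 3.47 TPM in the TLL day 1 libraries and 2.13, 55.6 and 56.29 TPM in the WT day 1 libraries. NRRL3_11493 held 16.82, 13.12 and 1.84 TPM in the TLL day 1 libraries and 0.5, 34.54 and 33.34 TPM in the WT day 1 libraries. In all 3 genes WT replicate 1 lay within the range of the later libraries. NRRL3_01063 kept the highest level there, at 288.41, 243.41 and 101.68 TPM in the TLL day 1 libraries and 89.98, 313.04 and 297.43 TPM in the WT day 1 libraries. The IDs in this and the next paragraph were chosen after their values were seen.

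The 6 members with the opposite pattern were NRRL3_00847, NRRL3_03227, NRRL3_03234, NRRL3_07110, NRRL3_07369 and NRRL3_09426. NRRL3_07369 held 1.65, 9.33 and 91.78 TPM in the TLL day 1 libraries and 57.04, 1.42 and 1.07 TPM in the WT day 1 libraries, and its later libraries held up to 5.13 TPM. NRRL3_03227 held 1.25, 4.83 and 39.93 TPM in the TLL day 1 libraries and 42.94, 2.62 and 1.62 TPM in the WT day 1 libraries, and up to 2.67 TPM later. For both genes the high WT day 1 mean rested on WT replicate 1 alone, and the other 2 WT day 1 libraries were no higher than later ones. NRRL3_09426 held 15.46, 29.85 and 179.35 TPM in the TLL day 1 libraries and 166.22, 28.34 and 21.98 TPM in the WT day 1 libraries, with up to 22.06 TPM later.

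Across the 22 members, log2(TPM + 1) correlated at r = 0.976 between TLL replicate 3 and WT replicate 1, libraries of different strains. It correlated at 0.180 and 0.415 between TLL replicate 3 and the other TLL day 1 libraries and at 0.0907 and 0.113 between WT replicate 1 and the other WT day 1 libraries. The remaining TLL and WT day 1 libraries correlated at 0.817 to 0.895 across the strains, and at 0.958 within TLL and 0.995 within WT. These are correlations across genes, which are not independent replicates. The rule also chose the members on the means of these same libraries. Without both TLL replicate 3 and WT replicate 1 the rule found 17 genes, of which 15 were among the 22 members. Without WT replicate 1 alone it found 17 genes, all of them members, and without TLL replicate 3 alone 18 genes, of which 16 were members.

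**Figure D3:**
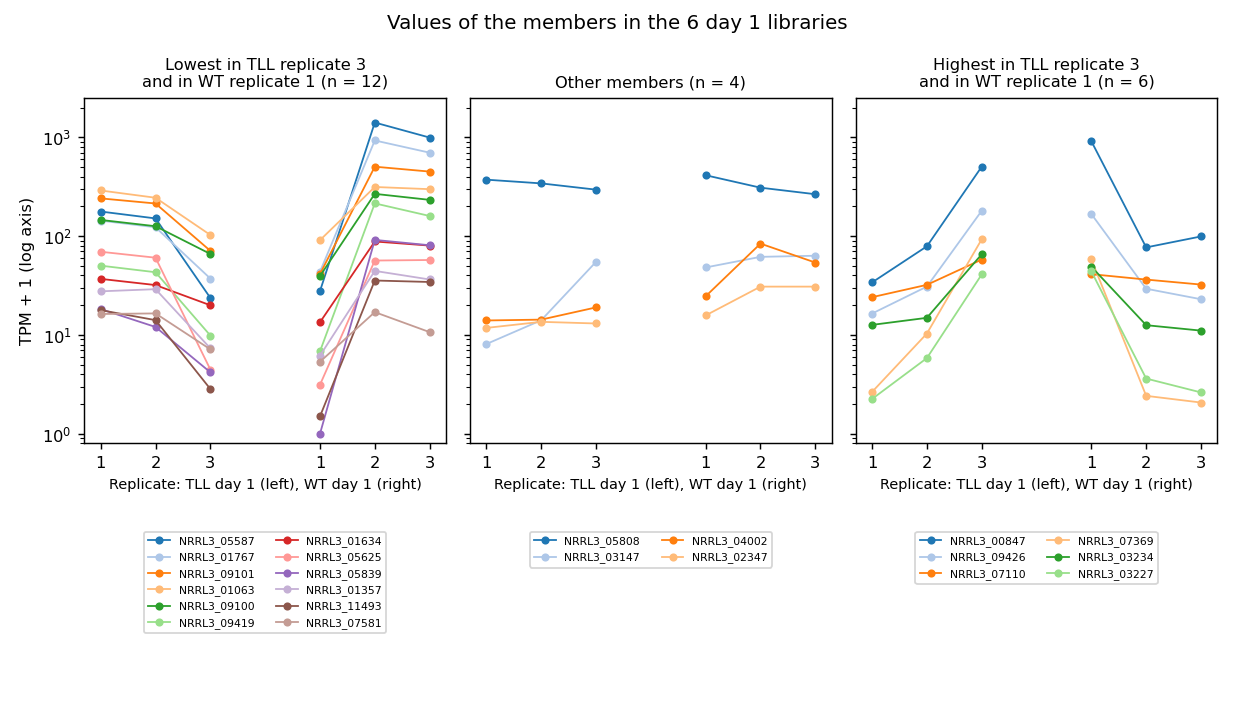
TPM + 1 (log axis) of each member in the 3 TLL day 1 libraries and the 3 WT day 1 libraries, in 3 panels by their pattern. Lines join libraries of 1 gene within a strain and stand for no order. In the left panel all 12 genes have their lowest value in TLL replicate 3 and in WT replicate 1, and in the right panel all 6 genes have their highest value there.

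Among the members, 1 pair had neighbouring numbers in the ID order, NRRL3_09100 and NRRL3_09101, and 2 further pairs lay 7 numbers apart. The sources used here do not say whether the ID order follows the genome. NRRL3_09101 held 239.78, 212.77 and 70.01 TPM in the TLL day 1 libraries and 40.33, 502.95 and 448.52 TPM in the WT day 1 libraries, the same order of libraries as its neighbour. The next 3 IDs, which are not members and were singled out after their values were seen, were also higher at day 1. NRRL3_09102 held 605.64, 484.23 and 211.46 TPM in the TLL day 1 libraries and 229.07, 1341.77 and 1090.13 TPM in the WT day 1 libraries, and the lower of its day 1 means was 2.86 times its highest later mean of 151.9 TPM. The ratio was 2.42 for NRRL3_09103 and 3.56 for NRRL3_09104. All 3 were lowest in TLL replicate 3 and in WT replicate 1 among the day 1 libraries of each strain. The run ended at NRRL3_09105, with 209.7 TPM in the WT day 1 libraries and 161.5 TPM in its highest later group, and on the other side at NRRL3_09099, with at most 1.07 TPM at day 1. Over all members, 5 of the 89 other genes within 3 numbers of a member that passed the filter had both day 1 means at least 2 times every later mean (5.62%), against 137 of all 9558 genes (1.43%). The 137 include the 22 members, which pass by the rule, while the 89 hold no member. Of the 5, 3 are the IDs of this run.

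**Figure D4:**
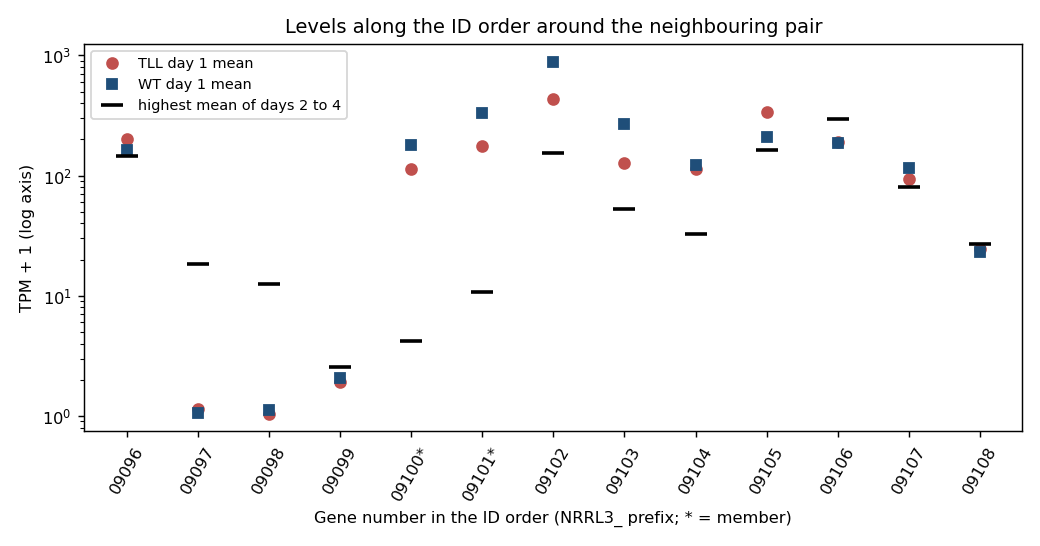
Mean TPM + 1 (log axis) at TLL day 1 and WT day 1 (3 libraries each) and the highest of the 6 later group means, for 13 IDs in number order around the neighbouring pair of members (starred). From NRRL3_09100 to NRRL3_09104 both day 1 means lie above every later mean by a factor of at least 2.42.

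The first question the design allows for these genes is whether they differ between the strains. The rule treats both strains alike, so it did not choose the direction of a difference. It did limit the size at day 1, as both strains had to pass. Before the upper limit, 60 genes met the day 1 conditions on the WT mean and 33 on the TLL mean. Each of these counts includes the 22 that met them on both. At day 1 the members that were called were lower in TLL, but few were called. Of the 22 members, 0 were called higher and 3 lower in TLL (limma on log2(TPM + 1), all 9558 genes, Benjamini-Hochberg adjusted p under 0.05). Over all genes 7.31% were called, 1.76% higher and 5.56% lower, and after median-of-ratios scaling 344 genes were higher and 592 lower. The median log2 change of the members was -0.40, against -0.02 for all genes, and 16 of 22 were below 0.

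NRRL3_04002 stood at 13.01, 13.29 and 17.99 TPM in the TLL day 1 libraries, against 23.62, 82.94 and 53.01 TPM in the WT day 1 libraries. The strains did not overlap, and the log2 change was -1.63 (SE 0.40, limma adjusted p = 0.0182). NRRL3_03147 stood at 7.09, 13.08 and 53.88 TPM in the TLL day 1 libraries, against 47.17, 60.67 and 62.31 TPM in the WT day 1 libraries. Here TLL replicate 3 lay within the WT range, and the log2 change was -1.64 (SE 0.45, limma adjusted p = 0.0311). The third, NRRL3_02347, named because so few were called, held 10.78, 12.57 and 12.06 TPM in the TLL day 1 libraries and 14.76, 29.82 and 29.82 TPM in the WT day 1 libraries, without overlap (log2 change -0.95 with an SE of 0.23, limma adjusted p = 0.0171). None of these 3 belongs to the 12 members lowest or the 6 members highest in both libraries standing apart. Those libraries were still extreme here, as WT replicate 1 was the lowest WT day 1 library in all 3. TLL replicate 3 was the highest TLL day 1 library in NRRL3_04002 and NRRL3_03147 and the middle one in NRRL3_02347.

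The call at day 1 depended on the fit and on those libraries. The fit on all libraries shares 1 spread per gene across the 8 groups. For members whose day 1 spread was wider than their later spread, the SE at day 1 can thus be too small. In the fit on the day 1 libraries only, the limma adjusted p was 0.669 for NRRL3_03147 and 0.584 for NRRL3_04002. With only the 6 day 1 libraries in the fit, limma called 0 members and 0 genes of 9558 (0.0%), with 2 members and 700 genes at an unadjusted p under 0.05. Without TLL replicate 3 and WT replicate 1 it called 11 members, 1 higher and 10 lower, against 25.8% of all genes, while leaving out WT replicate 1 alone gave 12, against 13.5% of all genes. Without TLL replicate 3 alone the count was 3, against 23.1% of all genes, and without WT replicate 3 alone it was 1, against 10.2%. Without TLL replicate 1, TLL replicate 2 or WT replicate 2 limma called 0 members, against 3.62%, 2.17% and 2.62% of all genes. NRRL3_05587 shows the difference: its log2 change was -2.85 (SE 0.38, limma adjusted p = 1.6e-05) without both libraries and -1.98 (SE 0.97) with them, where it was not called.

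At day 2, when the members were below their day 1 means, 19 of 22 log2 changes were below 0, most of them without a call. The test called 1 member, lower, where 9.71% of all genes were called, 1.49% lower and 8.22% higher. This was NRRL3_02347, at 1.00, 0.63 and 0.53 TPM in the TLL day 2 libraries and 1.55, 2.62 and 4.24 TPM in the WT day 2 libraries (log2 change -1.09 with an SE of 0.23, limma adjusted p = 0.00615), and its call was lost without WT replicate 3 and, at -0.43, with a pseudocount of 5 TPM. Counted by libraries, 10 of the 22 members had all 3 TLL libraries below all 3 WT libraries, against 7.61% of all genes, and 1 had them above, against 31.9%. The members' median log2 change was -0.44, beside 0.19 for all genes. Scaling by the median of ratios moved these medians to -0.59 and 0.02, and gave 318 genes higher and 234 lower over all genes.

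The members' wide day 1 spread enters the SE of every later comparison in the fit on all libraries. The 6 day 1 libraries were then left out of the fit, an alternative added after the data were seen. This fit called 8 members at day 2, 1 higher and 7 lower. Of all genes 29.6% were called, 2316 higher and 512 lower. Of the 8 members, NRRL3_01767 held 8.31, 8.24 and 6.43 TPM in the TLL day 2 libraries and 18.63, 20.45 and 21.8 TPM in the WT day 2 libraries, without overlap. Its log2 change of -1.30 had an SE of 0.28 in that fit (limma adjusted p = 0.00291) and of 0.74 with the day 1 libraries, where it was not called.

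**Figure D5:**
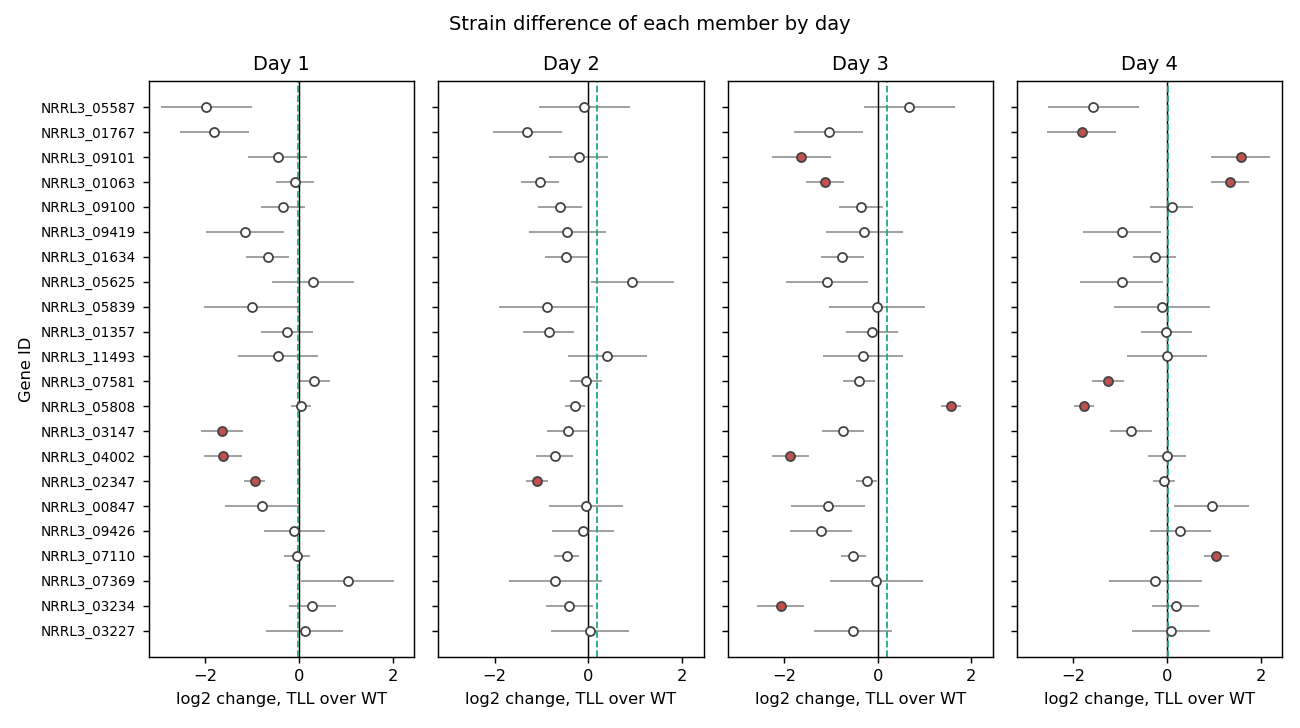
log2 change of TLL over WT on the log2(TPM + 1) scale for each member at each labelled day, with the SE of the fit on all 24 libraries as bars. Filled points have a limma adjusted p under 0.05 and the dashed line is the median of all 9558 genes. At day 2, 19 of 22 points and at day 3, 20 of 22 points lie below 0, while at day 4, 13 lie below and 8 above.

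At day 3, 4 members were called lower in TLL and 1 higher. Of all genes 47.1% were called, 32.2% higher and 14.9% lower. Whether called or not, 20 of 22 members had a log2 change below 0. The median was -0.52, against 0.19 for all genes, and -0.68 against -0.01 after median-of-ratios scaling, which gave 2212 genes higher and 2053 lower. With the day 1 libraries left out, 1 member was called higher and 11 lower. Of all genes 59.9% were called in that fit, 3768 higher and 1962 lower. Counted by libraries, 11 members lay lower in TLL without overlap, against 25.0% of all genes, and 2 lay higher, against 44.0%.

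The largest drop in TLL at day 3 was that of NRRL3_03234, at 0.1, 0.63 and 0.21 TPM in the TLL day 3 libraries and 5.16, 3.42 and 4.88 TPM in the WT day 3 libraries (log2 change -2.07 with an SE of 0.50, limma adjusted p = 0.00206). NRRL3_04002 held 0, 0.25 and 0.3 TPM in the TLL day 3 libraries and 4.03, 2.62 and 3.31 TPM in the WT day 3 libraries (log2 change -1.86 with an SE of 0.40, limma adjusted p = 0.000741). With a pseudocount of 5 TPM in place of 1 the changes were -0.83 for NRRL3_03234, which was then not called, and -0.68 for NRRL3_04002, which was. NRRL3_01063 and NRRL3_09101, outside the 2 largest, were lower with log2 changes of -1.13 and -1.63. NRRL3_05808 was the member higher in TLL, at 37.33, 29.84 and 34.08 TPM in the TLL day 3 libraries and 9.7, 15.74 and 7.99 TPM in the WT day 3 libraries (log2 change 1.56 with an SE of 0.22, limma adjusted p = 6.9e-06). In each of these 5 genes the libraries of the strains did not overlap.

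At day 4 the members were split. The test called 3 higher and 3 lower in TLL, where 54.1% of all genes were called, 27.3% higher and 26.8% lower. The share called was below that of all genes, as at day 3, but the rule chose the members for lower later levels. In the TLL day 4 libraries 11 of 22 averaged under 1 TPM, against 8.33% of the 9558 genes. The members' day 1 spread also enters the SE. What either did to the share called was not tested. With the day 1 libraries left out, 4 were higher and 7 lower, where 65.1% of all genes were called, 3178 higher and 3042 lower. The median log2 change was -0.04, against 0.03 for all genes.

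NRRL3_09101 was higher in TLL at day 4, at 3.41, 2.73 and 3.09 TPM in the TLL day 4 libraries and 0.33, 0.29 and 0.47 TPM in the WT day 4 libraries (log2 change 1.58 with an SE of 0.63, limma adjusted p = 0.0404). NRRL3_01063 held 12.28, 15.28 and 13.51 TPM in the TLL day 4 libraries and 5.52, 3.88 and 5.02 TPM in the WT day 4 libraries (log2 change 1.34 with an SE of 0.40, limma adjusted p = 0.00817). NRRL3_05808 was lower in TLL, at 12.56, 13.16 and 15.06 TPM in the TLL day 4 libraries and 52.58, 48.56 and 45.96 TPM in the WT day 4 libraries (log2 change -1.78 with an SE of 0.22, limma adjusted p = 1.31e-06). NRRL3_01767 was listed at 0, 0.5 and 0 TPM in the TLL day 4 libraries, against 3.54, 2.81 and 2.82 TPM in the WT day 4 libraries (log2 change -1.82 with an SE of 0.74, limma adjusted p = 0.0438). The calls of NRRL3_09101 and NRRL3_01767 were lost without any 1 of the 6 day 4 libraries and that of NRRL3_01767 without several libraries of other days, while in the fit without the day 1 libraries their limma adjusted p were 2.16e-05 for NRRL3_09101 and 1.81e-05 for NRRL3_01767. Both calls were also lost with a pseudocount of 5 TPM, at 0.59 for NRRL3_09101 and -0.64 for NRRL3_01767. The remaining 2 calls were NRRL3_07110, with a change of 1.06 on the log2 scale (SE 0.27, limma adjusted p = 0.0029), and NRRL3_07581, at -1.26 on that scale (SE 0.34, limma adjusted p = 0.00394).

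The strain difference itself changed between day 3 and day 4 in 6 of the 22 members, against 58.5% of all genes. The change is the difference of TLL to WT at day 4 less that at day 3. It was positive in 5 members and negative in 1, where 25.1% and 33.4% of all genes were called. It was 3.21 for NRRL3_09101 (SE 0.89, limma adjusted p = 0.00438) and 2.47 for NRRL3_01063 (SE 0.57, limma adjusted p = 0.000965). With a pseudocount of 5 TPM the change of NRRL3_09101 was 1.57 and was not called. For NRRL3_05808 the change was -3.34 (SE 0.31, limma adjusted p = 1.68e-08). Each of these 3 genes thus stood on opposite sides in TLL relative to WT on the 2 days, with no overlap of libraries on either day.

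A second question is whether the members kept on changing among the later days. Between day 2 and day 3 every member called in the fit on all libraries was lower at day 3, in both strains. In TLL 0 members rose and 5 fell at day 3 against day 2, where 17.9% of all genes were called, 4.69% higher and 13.2% lower. With the day 1 libraries left out 0 rose and 10 fell in TLL. There 33.1% of all genes were called, 850 higher and 2316 lower. In WT 0 rose and 6 fell, where 53.6% of all genes were called, 20.2% higher and 33.5% lower. With the day 1 libraries left out 4 rose and 13 fell in WT. There 65.6% of all genes were called, 2456 higher and 3811 lower. The median log2 change of the members was -0.70 in TLL and -0.63 in WT, against -0.16 and -0.17 for all genes. After median-of-ratios scaling 1 member rose and 4 fell in WT, with 2538 genes higher and 2514 lower over all genes. In TLL 0 members rose and 3 fell after that scaling, with 717 genes higher and 819 lower. Quantile normalization called 0 members in the TLL step, where 16.3% of all genes were called.

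NRRL3_01767 fell in both strains. It stood at 0, 1.17 and 0.84 TPM in the TLL day 3 libraries, against 8.31, 8.24 and 6.43 TPM in the TLL day 2 libraries (log2 change -2.44 with an SE of 0.74, limma adjusted p = 0.0261), and at 2.15, 3.91 and 1.28 TPM in the WT day 3 libraries and 18.63, 20.45 and 21.8 TPM in the WT day 2 libraries (log2 change -2.70 with an SE of 0.74, limma adjusted p = 0.00462). NRRL3_00847 was listed at 0, 0 and 0.77 TPM in the TLL day 3 libraries and stood at 7.4, 2.98 and 6.99 TPM in the TLL day 2 libraries (log2 change -2.41 with an SE of 0.80, limma adjusted p = 0.0409), a call lost without any 1 of these 6 libraries. The TLL call of NRRL3_01767 was lost without any of these TLL libraries other than day 3 replicate 2. Both TLL calls were lost with a pseudocount of 5 TPM, at -1.16 for NRRL3_01767 and -1.01 for NRRL3_00847. NRRL3_05808 fell in WT by 2.66 on the log2 scale (SE 0.22, limma adjusted p = 5.04e-09), and fell by 0.82 in TLL (SE 0.22, limma adjusted p = 0.0113).

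Between day 3 and day 4 most members called in WT fell, and fewer were called in TLL, a difference in number that was not itself tested. In WT 1 member rose and 6 fell, where 53.4% of all genes were called, 32.9% higher and 20.4% lower (2681 and 2500 genes after median-of-ratios scaling), and the members' median log2 change was -0.50, against 0.15 for all genes. In TLL 1 rose and 2 fell, where 47.4% of all genes were called, 21.7% higher and 25.7% lower, with medians of -0.02 for the members and -0.02 for all genes. With the day 1 libraries left out, 2 rose and 10 fell in WT, where 64.7% of all genes were called, 3724 higher and 2464 lower. In TLL 3 rose and 4 fell in that fit, where 60.9% were called, 2775 higher and 3044 lower.

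In WT NRRL3_09101 had the largest fall, to 0.363 ± 0.0945 TPM in the WT day 4 libraries, against 9.81 ± 4.00 TPM in the WT day 3 libraries (SD, n = 3 each), a difference of -2.91 on the log2 scale (SE 0.63, limma adjusted p = 0.000642). NRRL3_01063 averaged 4.81 ± 0.841 TPM in the WT day 4 libraries and 27.4 ± 1.58 TPM in the WT day 3 libraries (SD, n = 3 each), a difference of -2.30 on the log2 scale (SE 0.40, limma adjusted p = 8.01e-05). NRRL3_05808 rose in WT by 2.09 on the log2 scale (SE 0.22, limma adjusted p = 1.36e-07), the only member called higher in this step. In TLL the same gene fell by 1.25 on the log2 scale (SE 0.22, limma adjusted p = 0.000101). NRRL3_03147 averaged 0.580 ± 0.419 TPM in the TLL day 4 libraries and 2.69 ± 0.766 TPM in the TLL day 3 libraries (SD, n = 3 each), a difference of -1.24 on the log2 scale (SE 0.45, limma adjusted p = 0.0285). NRRL3_07110 rose to 5.27 ± 0.953 TPM in the TLL day 4 libraries, against 2.68 ± 0.955 TPM in the TLL day 3 libraries (SD, n = 3 each), a difference of 0.79 on the log2 scale (SE 0.27, limma adjusted p = 0.0224). The call of NRRL3_03147 was lost without TLL day 3 replicate 2 or 3 or day 4 replicate 2, and that of NRRL3_07110 without TLL day 3 replicate 1 or day 4 replicate 2 or 3. With a pseudocount of 5 TPM neither was called, at -0.46 for NRRL3_03147 and 0.42 for NRRL3_07110, and the WT change of NRRL3_09101 was -1.43 and was called. Most of these later changes lay below 10 TPM, where the log2(TPM + 1) scale understates a change.

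For the comparisons after day 1, these are the shares of all genes called in 3 further fits. The members' counts in these fits stand beside the shares in the last section. Fits on the compared libraries only called 9.71%, 63.4% and 62.1% of all genes between the strains at days 2, 3 and 4, 64.5% and 62.0% in the WT steps to day 3 and day 4, 27.4% and 63.8% in the TLL steps, and 69.2% for the change of the strain difference. Without TLL day 1 replicate 3 and WT day 1 replicate 1 the shares were 29.3%, 59.9% and 65.0% at days 2, 3 and 4, then 65.8% and 64.9% in WT, 33.1% and 60.9% in TLL, and 68.5%. With all day 1 libraries left out, 68.4% of all genes and 10 members were called for the change of the strain difference.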

How the data were processed

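Illumina sequencing of hyphal RNA is given in the labels' protocols. The deposited table holds TPM values per gene, made by the authors, for 24 libraries. The submitters' processing notes name HISAT2, StringTie and Cufflinks without roles, and the table's name refers to RSEM. Build: not given in the sources used here. 0 columns belonged to no sample and 0 of 276 library pairs were identical.

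Values were transformed to log2(TPM + 1). Genes had to reach 1 TPM in 3 or more libraries, which left 9558, including all 22 members. The 8 group means were fitted in limma 3.58.1 (R 4.3.3) with a mean-variance trend, with Benjamini-Hochberg adjustment across those 9558 genes. The fit was tested on simulated data with 1 spread per gene in all groups. That test cannot show how the fit behaves where the day 1 spread is wider. The members, contrasts and alternatives were chosen with earlier results of these data known. Gene lists and conidiophore markers chosen by name could not be matched to the IDs. Named members are the 2 with the highest day 1 mean, the 2 with the largest ratio, those at the limits, the neighbouring pair and, per contrast, the 2 largest called changes each way. Any other ID is marked where it is given, or is named because few members were called. Figures were drawn with matplotlib 3.10.9.

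The labels give each group replicates 1 to 3, with no statement that equal numbers share a culture.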

Additional observations from a re-analysis of the deposited data

Results flagged for a closer look

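For 6 members the difference between the strains changed from day 3 to day 4 by a test of that change (limma, fit on all 24 libraries, adjusted p under 0.05), where 58.5% of all 9558 genes were called. On the log2 scale the change was 3.21 for NRRL3_09101, 2.47 for NRRL3_01063, 2.26 for NRRL3_03234, 1.86 for NRRL3_04002, 1.57 for NRRL3_07110 and -3.34 for NRRL3_05808. NRRL3_03234 averaged 0.313 ± 0.280 TPM in the TLL day 3 libraries and 4.49 ± 0.934 TPM in the WT day 3 libraries, and 0.357 ± 0.208 TPM in the TLL day 4 libraries and 0.200 ± 0.272 TPM in the WT day 4 libraries (SD, n = 3 each). NRRL3_04002 averaged 0.183 ± 0.161 TPM in the TLL day 3 libraries and 3.32 ± 0.705 TPM in the WT day 3 libraries, and 0.453 ± 0.417 TPM in the TLL day 4 libraries and 0.513 ± 0.723 TPM in the WT day 4 libraries (SD, n = 3 each). In both genes WT day 3 stood out, and the strains overlapped at day 4. NRRL3_07110 averaged 2.68 ± 0.955 TPM in the TLL day 3 libraries and 4.30 ± 1.47 TPM in the WT day 3 libraries, and 5.27 ± 0.953 TPM in the TLL day 4 libraries and 2.00 ± 0.256 TPM in the WT day 4 libraries (SD, n = 3 each). Beyond leaving out each library in turn, these groups of 3 libraries were not examined for single outlying values.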

How the results depend on the processing

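The fit without the 6 day 1 libraries called 8, 12 and 11 members between the strains at days 2, 3 and 4, 17 and 12 in the WT steps to day 3 and day 4, 10 and 7 in the TLL steps, and 10 for the change of the strain difference. Of all genes it called 29.6%, 59.9% and 65.1%, then 65.6% and 64.7%, 33.1% and 60.9%, and 68.4%. The fits on the compared libraries only called 0, 5, 12 and 10 between the strains at days 1 to 4, 15 and 12 in the WT steps, 10 and 7 in the TLL steps and 10 for the change. Of all genes they called 0.0%, 9.71%, 63.4% and 62.1%, then 64.5% and 62.0%, 27.4% and 63.8%, and 69.2%. Without TLL day 1 replicate 3 and WT day 1 replicate 1 together the counts were 11, 7, 12 and 11, then 16 and 11, 11 and 6, and 10, in the same order. The shares of all genes were 25.8%, 29.3%, 59.9% and 65.0%, then 65.8% and 64.9%, 33.1% and 60.9%, and 68.5%. Library weights gave 14, 12, 13 and 10, then 17 and 13, 11 and 10, and 11, where 49.8%, 55.3%, 71.4% and 71.1%, then 77.4% and 71.3%, 50.8% and 72.2%, and 75.9% of all genes were called. A pseudocount of 5 TPM gave 0, 3 and 3 at days 2 to 4, 3 and 4 in the WT steps, 1 and 1 in the TLL steps and 3 for the change, where 12.5%, 47.0% and 54.6%, 53.6% and 53.3%, 19.3% and 48.2%, and 59.0% of all genes were called. A pseudocount of 0.1 TPM gave 0 at day 1, against 7.32% of all genes, and 5 in the TLL step to day 4, against 45.8%. In the TLL step to day 3, median-of-ratios scaling gave 3 and quantile normalization 0, where 16.1% and 16.3% of all genes were called. The filters at 0 and 5 TPM moved no count by over 1.5 times. The replicate block left every count as it was, such as 3 at day 1 and 6 for the change of the strain difference. Of 48 same-numbered pairs, 7 correlated above 0.1 in their deviations from the group means, with a range of -0.64 to 0.44. Differently numbered pairs were not compared, so whether the number pairs the libraries is unknown.

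Leaving out each library in turn gave 0 to 12 members between the strains at day 1, 0 to 3 at day 2, 3 to 7 at day 3 and 4 to 7 at day 4. Of all genes, 2.17% to 23.1%, 2.51% to 17.4%, 40.5% to 52.7% and 46.1% to 59.0% were called in these fits. In the WT steps the counts were 3 to 11 and 5 to 9, in the TLL steps 1 to 7 and 1 to 3, and for the change 6 to 7. The shares of all genes called were 46.5% to 58.7% and 46.6% to 58.4% in the WT steps. They were 11.8% to 24.2% and 40.2% to 53.1% in the TLL steps and 54.7% to 63.2% for the change. The rule itself found 17 to 24 genes. With an 8-fold limit it found 5 genes and with a 50 TPM limit 8. Of the 23 changes named by rule, 0 reversed under any alternative run, but 11 lost their call under at least 1 alternative, 9 of them with a pseudocount of 5 TPM. The causes of these shifts were not tested. TPM keeps no depth, so what depth limits is unknown.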
